A study of Mus musculus with 2 samples.

Results

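The S100 genes encode small calcium-binding proteins, and 10 of them, S100a1, S100a4, S100a6, S100a8, S100a9, S100a10, S100a11, S100a13, S100a16 and S100b, were followed through the mouse spleen. They were found by symbol, mapped from unversioned Ensembl identifiers, among the 43346 genes and 103639 transcripts of the deposited tables, where 17 genes, pseudogenes aside, have an S100 family symbol. All 10 members were found, with 23 transcripts between them. The data are poly(A) RNA sequencing of spleen tissue from C57BL/6J mice, a common inbred laboratory strain, aged 8 weeks. The labels name no treatment and no altered allele, and the 2 libraries, here library 1 and library 2, form a single group as its biological replicates. The RNA was depleted of ribosomal RNA and kept above 200 nucleotides, and stranded libraries with spike-ins were read from both ends for 76 bases. The labels name littermates of both sexes as the source, leave the sex unrecorded, give both libraries 1 donor identifier, and do not say which animals or pools entered each library.

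S100 proteins carry a pair of EF-hands, the helix-loop-helix fold that binds calcium, and mostly work as dimers. On calcium binding most of them open a surface that grips target proteins inside the cell, such as annexins and myosin. Several also leave the cell and act on receptors, and the dimer of S100A8 and S100A9, known as calprotectin, is a major cytosolic protein of neutrophils that is released in inflammation. The spleen filters blood and stores white cells, so S100 genes of myeloid cells, of stroma and of widely expressed housekeeping kind meet in one tissue. In bulk RNA, fewer cells of a type and less RNA per cell cannot be told apart.

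The gene tables held 49686344 expected counts in library 1 and 51393345 in library 2. Levels between genes are compared in TPM, the deposited measure of transcript abundance that allows for length. Differences between libraries are folds of counts scaled with TMM, a trimmed mean of ratios, and each was set against counting error with an exact two-sided binomial test, adjusted over the 17547 genes with 10 or more counts. With 1 library on each side, such a p compares these libraries and not a condition, and it allows for no spread between replicates beyond counting. Erythroid genes summed to 194306 TPM in library 1 and 304494 TPM in library 2, and pancreatic acinar genes, which are not spleen genes, to 77686 and 61494 TPM. TPM is a share of a fixed total, the TPM folds of all 10 S100 genes lay below their count folds, and direction is read from counts unless TPM is named. Spleen markers were present, with 3 B cell genes at a sum of 1868 and 1584 TPM.

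Of the 10 S100 genes, 9 were at 1 TPM or more in both libraries. The summed level of all 10 was 396.8 TPM in library 1 and 376.4 TPM in library 2, or 387 ± 14.5 TPM (SD, n = 2). Erythroid genes held more of the fixed TPM total in library 2, so the order of these sums is not read as a direction. S100a6 stood first at 82.7 ± 11.6 TPM, and S100a11 followed at 63.8 ± 2.05 TPM. S100a9 at 53.5 ± 6.75, S100a4 at 50.4 ± 15.9 and S100a8 at 40.7 ± 1.11 TPM came next, and neighbours in that run overlapped in their range over the libraries. S100a10 at 33.8 ± 1.78 TPM lay apart from S100a8 above it and from S100a13 below it. S100a13 at 25.7 ± 1.95, S100a1 at 20.1 ± 8.23 and S100a16 at 15.5 ± 1.78 TPM again overlapped as neighbours. S100b closed the order at 0.33 ± 0.424 TPM, far below S100a16. Of the summed TPM, S100a4, S100a6, S100a10 and S100a11 held 59.6 ± 4.82%, and S100a8 and S100a9 held 24.4 ± 2.95%. S100a1, S100a13 and S100a16 held 15.9 ± 1.76%. Among 21461 nuclear protein-coding genes, S100a6 sat at percentile 95.0 in library 1 and 94.9 in library 2, whereas S100b sat at 27.5 and 41.9.

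**Figure D1:**
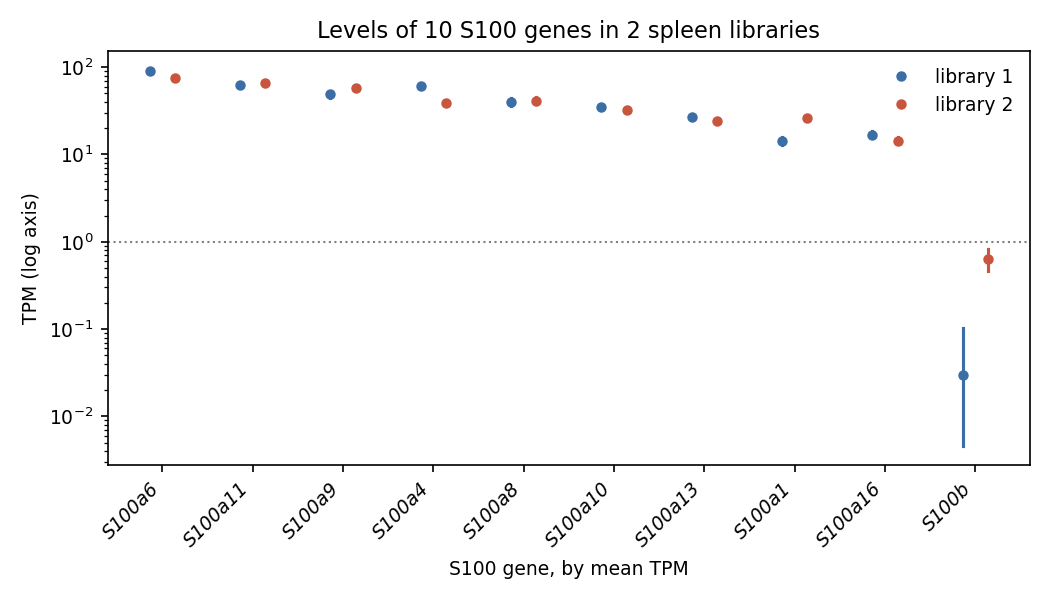
TPM of each S100 gene on a log axis, ordered by mean, in library 1 (blue) and library 2 (red), with the deposited interval of each value as a line and 1 TPM dotted. Of the 10 genes, 9 lie above 1 TPM in both libraries, and S100b lies below it at 0.03 and 0.63 TPM.

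Between the libraries, 7 of the 10 S100 genes differed beyond counting error, against 50.7% of all genes tested. Of these, 5 were higher in library 2 (24.1% of all genes) and 2 were lower (26.6% of all genes). Apart from S100b the members had 700 to 4500 counts in total, and 6 of those 9 were called beside 59.8% of all genes with such counts. That last share is close to its background and the share higher in library 2 is above its own. Neither was tested, and the number of calls is not read as a result about the S100 genes. The median log2 ratio of the members was 0.15, and that of all genes tested 0.005. S100a1 and S100b alone passed 2-fold, as 7.25% of all genes tested did, and no further member passed 1.5-fold, as 18.5% did. S100a10, S100a13 and S100a16 did not pass the test.

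**Figure D2:**
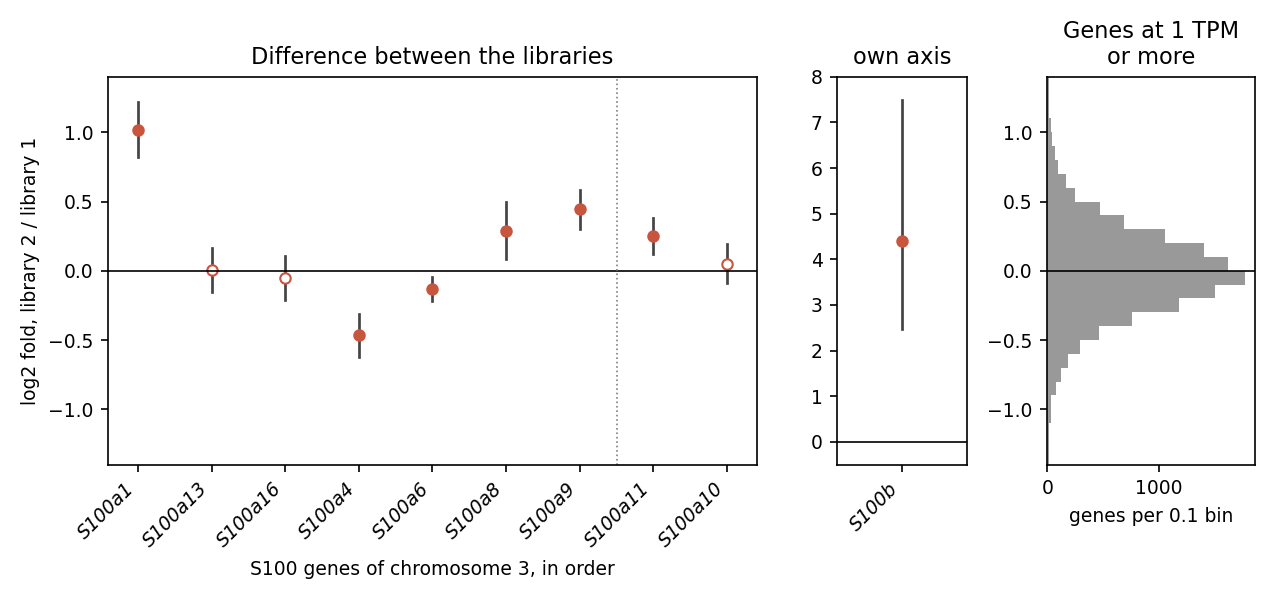
Log2 fold of scaled counts, library 2 over library 1, for the S100 genes of chromosome 3 in chromosomal order (left; the dotted line separates the distal cluster) and for S100b on an axis of its own (middle), with 95% counting intervals, filled where the exact binomial test passed. The histogram (right) gives all genes at 1 TPM or more in both libraries, with those beyond the axis limits not drawn, and S100a1 lies near its upper edge.

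S100a8 and S100a9, the calprotectin subunits, are neighbours on chromosome 3 in GRCm38, at 90668978 to 90670035 on the plus strand and 90692632 to 90695721 on the minus strand. Both are 3-exon genes in their leading transcripts, with the protein encoded in exons 2 and 3. RefSeq's promoter windows, which run from 250 bases before to 50 after an annotated start, hold the TATA box letters TATAAA, searched on both strands, in 13.6% of 32851 windows. Among the 9 members with a window the letters occurred in S100a8, S100a9 and S100a4. The stretches below (RefSeq windows, GRCm38.p6, each read 5′ to 3′ on the gene's strand) are shown because these 3 genes share the letters, given in capitals.
S100a8: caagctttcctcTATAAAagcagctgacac
S100a9: caaggagctgccTATAAAtactgggcttac
S100a4: ggcctggcagggTATAAAtaggtcagattg
They lie at chr3:90669029-90669058 on the plus strand, chr3:90695704-90695733 on the minus strand and chr3:90603727-90603756 on the plus strand. In S100a8 the letters begin 30 bases before the RefSeq start and in S100a4 31 bases before it, while in S100a9 they begin at the RefSeq start itself. Annotations differ here, since GENCODE M21 begins S100a8 63 bases before the letters, in a model of 486 bases that is longer than the 392 quantified, and begins S100a9-201 10 bases after the start of the letters. A match describes the letters only.

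S100a9 had 705 counts and 48.8 TPM in library 1 and 971 counts and 58.3 TPM in library 2. It was higher in library 2, at 1.36-fold with a counting interval of 1.23 to 1.5 (exact binomial test, adjusted p = 2.51e-09), and the deposited TPM intervals did not overlap. S100a8 had 344 counts and 39.9 TPM in library 1 and 426 counts and 41.5 TPM in library 2. Its counts were 1.22-fold higher in library 2, interval 1.06 to 1.41 (exact binomial test, adjusted p = 0.0129), but its deposited TPM intervals of 35.6 to 44.0 and 37.4 to 45.2 overlapped. The S100a8 transcript of 392 bases is the shortest of the set, so few fragment positions fit on it, and the deposited effective length, the number of such positions, was 179 bases in library 1 and 194.7 in library 2. That is a ratio of 1.09, beside 1.01 for the median detected gene. Divided by effective length, an alternative chosen after seeing the data, the S100a8 log2 ratio was 0.18 and no longer passed the test (exact binomial test, adjusted p = 0.144), and S100a9 stayed at 0.38.

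Genes of other myeloid programmes did not all lie on the same side as S100a8 and S100a9. Of 10 genes of late neutrophil granules and mature neutrophils, 3 were higher in library 2, 5 were lower and 2 did not pass, with a median log2 ratio of -0.09 and a summed level of 375 TPM in library 1 and 272 TPM in library 2. Ngp, a neutrophilic granule protein, was higher at 52.7 and 68.9 TPM (log2 ratio 0.52), whereas Camp, the cathelicidin precursor, was lower at 128 and 71.4 TPM (-0.67) and Retnlg, a resistin-like neutrophil protein, at 36.5 and 13.9 TPM (-1.21). Of 4 genes of granulocyte precursors, 3 were lower and 1 did not pass, with Elane, neutrophil elastase, at 60.7 and 32.5 TPM. Of 6 monocyte genes, 4 were higher and 2 did not pass, and Lyz2, a lysozyme of monocytes and macrophages, was at 633.5 and 705 TPM (log2 ratio 0.29). The part of these cells in the S100a8 and S100a9 ratios was not tested.

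S100a4, S100a6, S100a10 and S100a11 are grouped here as members that bind cytoskeletal and membrane partners. S100a4, also called metastasin or fibroblast-specific protein, binds non-muscle myosin and lies at 90603771 to 90606045 on the plus strand of chromosome 3. It had 835 counts and 61.6 TPM in library 1 and 612 counts and 39.1 TPM in library 2. It was lower in library 2 at 0.724-fold, interval 0.651 to 0.804 (exact binomial test, adjusted p = 5.56e-09), and the deposited TPM intervals were apart. Of the 12495 genes at 1 TPM or more in both libraries, 7.84% had a lower ratio. The gene nearest to S100a4 in both levels was Trim25, a ubiquitin ligase, at 61.8 and 39.4 TPM, which is a likeness of level over 2 libraries only.

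S100a6, or calcyclin, lies at 90612882 to 90624181 on the same strand as S100a4, with S100a5, at 0 counts in both libraries, between them. It had 2214 counts and 90.9 TPM in library 1 and 2049 counts and 74.5 TPM in library 2. It was 0.914-fold in library 2, interval 0.860 to 0.971 (exact binomial test, adjusted p = 0.00802), a small difference in the same direction as S100a4. S100a4 and S100a6, which follow each other in the order of the 10 members along the chromosome, are thus the members that were lower in library 2.

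Genes of the mesothelium, which covers the organ's surface, lay on the same side as S100a4 and S100a6, and fibroblast genes did not. Mesothelium was not alone on that side. All 5 mesothelial genes were lower in library 2, with a median log2 ratio of -0.61 and sums of 47.0 and 28.0 TPM. Of 6 genes of fibroblastic stroma, 4 were higher and 2 did not pass, with a median of 0.13. Smooth muscle genes were lower in 3 of 4 cases (median -0.19), and so were granulocyte precursor genes (-0.41), with 1 gene of each not passing. The part of any of these cell types in the S100a4 and S100a6 ratios was not tested.

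S100a10 and S100a11 form the distal pair of chromosome 3, at 93555080 to 93564643 and 93520488 to 93526287, both on the plus strand. S100a10, or p11, has lost calcium binding and forms a tight complex with annexin A2. It had 797 counts and 35.1 TPM in library 1 and 837 counts and 32.6 TPM in library 2. Its count fold of 1.04 had an interval of 0.940 to 1.14 and did not pass the test (exact binomial test, adjusted p = 0.583). Anxa2, which encodes annexin A2, was 1.31 times the S100a10 TPM in library 1 and 1.55 times in library 2.

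S100a11, or calgizzarin, binds annexin A1 and is found in most tissues. It had 895 counts and 62.4 TPM in library 1 and 1080 counts and 65.3 TPM in library 2. Its counts were 1.19-fold higher in library 2, interval 1.09 to 1.3 (exact binomial test, adjusted p = 0.000346), while the deposited TPM intervals overlapped. The 62 bases before its GENCODE start, at chr3:93520426-93520487 on the plus strand, are shown because S100a11 was the member with most motif matches.
S100a11: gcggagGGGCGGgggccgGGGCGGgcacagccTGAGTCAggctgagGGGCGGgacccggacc
Capitals mark 3 copies of GGGCGG, the core of the GC box, which occurs in 35.7% of all windows on either strand, and 1 copy of TGANTCA, the AP-1 letters, which occur in 7.81%. Relative to the RefSeq start the GC boxes begin at -64, -52 and -24 and the AP-1 letters at -38, and a further copy of TGANTCA begins at -136. The window of S100a6 held none of the 3 motifs.

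S100a1, S100a13 and S100a16 lie together at the start of the proximal cluster. S100a1, best known as a calcium-handling protein of heart and skeletal muscle, runs on the minus strand from 90514392 to 90511034. S100a13, which takes part in the release of the growth factor FGF1, runs on the plus strand from 90514435 to 90524581. They thus stand head to head, and the 42 bases between their GENCODE starts, at chr3:90514393-90514434, are shown on the plus strand because the neighbours differed in ratio.
S100a1 to S100a13: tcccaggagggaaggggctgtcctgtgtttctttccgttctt
Neither gene's window held any of the 3 motifs searched.

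S100a1 had 320 counts and 14.3 TPM in library 1 and 657 counts and 26.0 TPM in library 2. It was higher in library 2 at 2.03-fold, interval 1.77 to 2.32 (exact binomial test, adjusted p = 2.00e-25), and its TPM was 1.81-fold. A higher log2 ratio was found in 4.33% of all genes tested, and in 0.92% of those at 1 TPM or more in both libraries. S100a13 had 654 counts and 27.1 TPM in library 1 and 664 counts and 24.3 TPM in library 2. Its fold was 1.00, interval 0.898 to 1.12 (exact binomial test, adjusted p = 1), so the intervals of the head-to-head neighbours lay apart. In TPM, S100a1 was 0.529 times S100a13 in library 1 and 1.07 times in library 2. In library 2 the deposited intervals overlapped, at 23.89 to 27.87 TPM for S100a1 and 22.35 to 26.02 TPM for S100a13. The order of the genes was therefore not separable in that library.

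Markers of skeletal muscle, a list added after the data had been seen, summed to 6.66 TPM in library 1 and 4.21 TPM in library 2. The lower sum rests on Mylpf, a fast myosin light chain, at 4.08 and 1.10 TPM, although its counts of 23 and 33 did not pass the test. Of the 5 such genes tested, 2 were higher in library 2 and 3 did not pass, with a median log2 ratio of 0.47. The higher ones were Acta1, skeletal actin, with 29 and 58 counts (log2 ratio 0.94), and Ckm, muscle creatine kinase, with 22 and 45 counts (0.95). S100a1 had a log2 ratio of 1.01. Both markers lay below 1 TPM in each library, Acta1 at 0.49 and 0.89 TPM and Ckm at 0.38 and 0.7 TPM. Myh1 leaned the other way with 20.05 and 10.83 counts (-0.80) and did not pass. Muscle was not the only list with genes higher in library 2. All 6 red pulp macrophage genes (median 0.84), all 5 erythroid genes (0.90) and 3 of 4 fat cell genes (0.79) were higher. All 5 mesothelial genes were lower (-0.61). The part of any of these cell types in the S100a1 ratio was not tested. Magoh, a subunit of the exon junction complex, had the levels nearest to S100a1, at 13.2 and 26.5 TPM. Fgf1 itself, at 6.10 and 5.58 TPM, did not pass the test (exact binomial test, adjusted p = 0.723), nor did S100a13.

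S100a16 lies at 90537254 to 90543151 on the plus strand and is a broadly expressed member linked to fat cell formation. It had 691 counts and 16.8 TPM in library 1 and 675 counts and 14.3 TPM in library 2. Its fold was 0.964, interval 0.866 to 1.07 (exact binomial test, adjusted p = 0.622). The gene was the most divided of the set, with 4 of its 8 annotated transcripts holding reads, and these begin in start regions 3907 bases apart. S100a16-202, from the first start region, had 10.4 TPM in library 1 and 7.11 TPM in library 2. Transcripts of the second start region summed to 6.36 and 7.15 TPM, most of it S100a16-201 at 4.17 and 6.30 TPM. The first region thus held 62.1% of the gene in library 1 and 49.9% in library 2 (56.0 ± 8.67%, SD, n = 2). The deposited intervals of S100a16-202, 7.68 to 12.04 and 5.04 to 9.03 TPM, overlapped, as did those of S100a16-201. These intervals cover single transcripts and do not judge the share between the start regions, which was not tested. The window of the first start held none of the 3 motifs, and that of the second held GGGCGG at -30 and TGANTCA at -192.

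**Figure D3:**
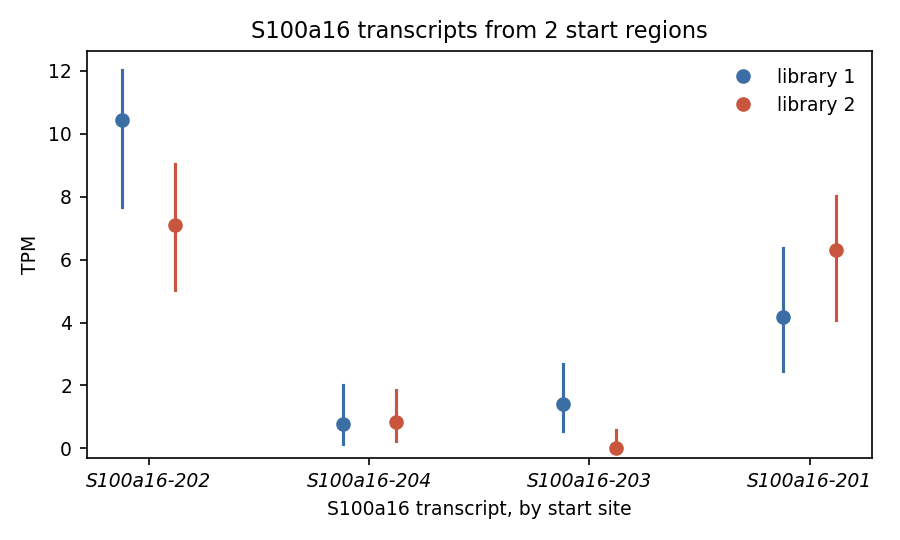
TPM of the 4 S100a16 transcripts with reads, ordered by start site, in library 1 (blue) and library 2 (red), with deposited intervals as lines. S100a16-202 starts in the first region and the others in the second, and the intervals of S100a16-202 and of S100a16-201 overlap between the libraries.

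Apart from S100a9, the other members came almost wholly from 1 transcript. S100a4-201 held 97.4 ± 0.0707% of S100a4, and S100a10-201 held 99.3 ± 0.354% of S100a10 beside a retained-intron transcript of S100a10 at 0.47% and 0.97%. S100a9 was assigned to S100a9-201 at 81.8% and 86.1% and to S100a9-202 for the rest. These S100a9 transcripts start 10 bases apart and are nearly identical, so that division is uncertain. S100a1, S100a6, S100a8, S100a11, S100a13 and S100b were each assigned to 1 transcript in full. In S100a13 the leading transcript has 4 exons with coding sequence in exons 2 to 4, and in the other members it has 3.

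S100b, the only member outside chromosome 3, lies on chromosome 10 at 76253853 to 76261159 on the plus strand. It is a marker of astrocytes and Schwann cells, is also made by fat cells, and is a ligand of the receptor RAGE. It had 2 counts and 0.03 TPM in library 1 and 43 counts and 0.63 TPM in library 2. The ratio was 21.2 with a counting interval of 5.53 to 181 (exact binomial test, adjusted p = 3.73e-10). With the prior count of 2 the log2 ratio was 3.48, which 0.205% of all genes tested exceeded, and it was 4.10 with a prior count of 0.5 and 2.13 with one of 10. The count in library 1 lies under the floor of 3 counts that a count of 0 allows, so the size of the ratio is loosely bounded.

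Glial genes did not share one direction with S100b. Of 5 genes of Schwann cells and glia, 1 was higher in library 2, 1 was lower and 3 did not pass. Sox10, a transcription factor of Schwann cells, was higher with 77 and 234 counts (log2 ratio 1.56). Of 4 fat cell genes, 3 were higher, with Cfd, adipsin, at 42.0 and 94.7 TPM (log2 ratio 1.32) and Adipoq, adiponectin, at 2.66 and 5.25 TPM (1.11). Kidney tubule genes, a list added after the data had been seen, summed to 0.82 and 3.22 TPM, and none reached 1 TPM in both libraries. Of the 6 tested, 4 were higher in library 2, with Umod, uromodulin, at 3 and 66 counts. The part of these cells in the S100b ratio was not tested.

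Receptors through which extracellular S100 proteins act were present at unequal levels. The list of 9 receptors and coreceptors also counts Myd88, a signalling adaptor. Of these 9 genes, 4 were higher in library 2, 2 were lower and 3 did not pass, with a median log2 ratio of 0.12. Nptn and Bsg, which encode neuroplastin and basigin and have been described as S100A8 and S100A9 receptors, were the most abundant by TPM. Nptn was at 233.8 and 234 TPM and Bsg at 231 and 187 TPM. In counts they were unlike, with 3853 and 4413 for Nptn and 11487 and 10680 for Bsg. Nptn was higher by counts (log2 ratio 0.18) and Bsg lower (-0.12). The other lower gene was Myd88, at 30.14 and 24.25 TPM (-0.19). Tlr4, the endotoxin receptor that calprotectin also engages, lay near 1 TPM, at 0.92 and 1.18 TPM, and was higher in library 2 (0.47), as were its coreceptor Cd14 at 11.8 and 14.2 TPM (0.40) and the scavenger receptor Cd36 at 7.15 and 9.99 TPM (0.60). Ager, which encodes RAGE, was at 4.76 and 4.73 TPM and did not pass (exact binomial test, adjusted p = 0.406).

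Intracellular partners also lay on both sides. Of 15 genes, 6 were higher in library 2, 3 were lower and 6 did not pass, with a median log2 ratio of 0.04. Anxa2, the partner of S100a10, was higher at 45.9 and 50.4 TPM (log2 ratio 0.26), and Anxa1, the partner of S100a11, at 2.83 and 3.63 TPM (0.35). Myh9, the myosin heavy chain bound by S100a4, was higher by 0.05 at 128 and 124 TPM, whereas S100a4 had a log2 ratio of -0.47. Cacybp, the calcyclin-binding protein, had a count log2 ratio of 0.49 but a TPM of 5.38 and 5.42, and S100a6 itself had a ratio of -0.13. Sugt1, a chaperone adaptor that binds S100a6, had the largest ratio of the list, at 4.04 and 6.22 TPM (0.75). Ppp5c, a phosphatase bound by several S100 proteins, was the most abundant by TPM at 240 and 193 TPM and was lower (-0.22).

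**Figure D4:**
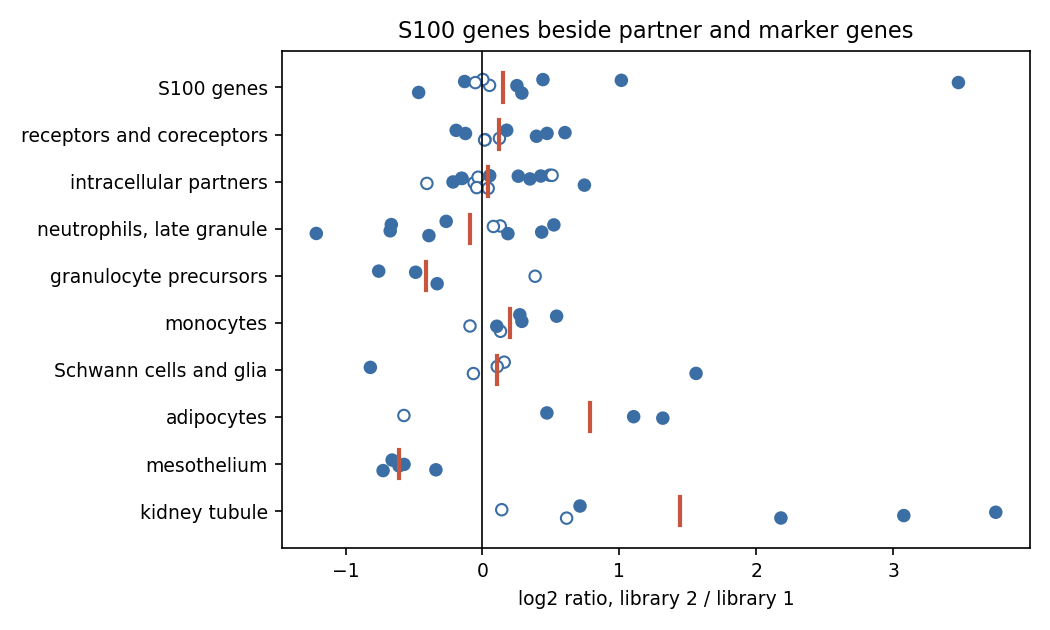
Log2 ratio of library 2 to library 1 with a prior count of 2, for each tested S100 gene and each tested gene of partner and marker lists, filled where the exact binomial test passed, with list medians as red bars. The S100 genes spread to both sides of 0 with a median of 0.15, S100b lies far to the right at 3.48, and all mesothelial genes lie to the left.

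The remaining S100 genes of the tables were at or near 0. S100a3 had 8 and 11 counts, 0.33 and 0.41 TPM, and did not pass the test (exact binomial test, adjusted p = 0.739). S100a7a had 3 and 4 counts and S100a14 had 0 and 1. S100a2, S100a5, S100g, S100z and the pseudogene S100a11-ps had 0 counts in both libraries, which allows up to 3 counts each. S100a2 and S100a11-ps were added to the list after the data had been seen.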

How the data were processed

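Expected counts, TPM, FPKM, transcript percent and TPM intervals, whose level is not stated, are as the authors deposited them, per the file headers. The deposited notes name mm10 and GENCODE M4. For the aligner, the quantification tool and counting by strand, details were not given in the sources used here. FPKM, also deposited, served only as an alternative. Symbols and positions came from GENCODE M21 (GRCm38), which matched 42462 identifiers (98.0%). Motifs were read in RefSeq promoter windows of GRCm38.p6.

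Rounded expected counts were compared with an exact two-sided binomial test against the share given by TMM-scaled library sizes (edgeR 4.0.16, R 4.3.3; factors 1.01 and 0.99), with Benjamini-Hochberg adjustment over 17547 genes with 10 or more counts and a threshold of 0.05. Log2 ratios use a prior count of 2. Fold intervals are 95% Clopper-Pearson, use no prior count, and cover counting error only, since reads are not independent molecules. Detected means 1 TPM. Python 3.11.15 with scipy 1.17.1, pandas 2.3.3 and numpy 2.4.6 did the rest. All members are named. From other lists up to 3 called genes of largest ratio, the most abundant gene and genes an S100 result turns on are named, except a few that are not reported here. The nearest gene by level has the smallest distance of log2(TPM + 1). Members and lists were chosen with earlier results of these data known. Contigs and junctions on mm9 were not used here.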

Additional observations from a re-analysis of the deposited data

How the results depend on the processing

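The 5 S100 genes higher and 2 lower in library 2 were tried under 8 alternatives each, among them DESeq2 size factors (DESeq2 1.42.0), upper quartile scaling, total counts, posterior mean counts and other count filters. The 2 lower genes remained 2 in each. The higher genes numbered 4 with a minimum of 50 counts, where S100b is not tested, and 4 per effective length, where S100a8 is lost. The direction turned for 2 genes that did not pass the test. S100a10 had -0.10 as a difference of log2(TPM + 1), and S100a13 had -0.027 with total gene counts, -0.029 per effective length and -0.15 as a difference of log2(TPM + 1). The summed level, as a mean of the libraries, became 569 TPM after rescaling without haemoglobin and acinar genes. That mean does not show whether the order of the libraries holds after rescaling. S100a8 and S100a9 held 15.75% by expected counts, which favour long transcripts. Leaving out a replicate only returns the value of the other library and is no check of its own. It gave 376.4 to 396.8 TPM for the sum and 22.35 to 26.51% for S100a8 and S100a9. Ratios need both libraries and could not be recomputed that way. No paired analysis was possible because there is a single group. Depth limits S100b and the S100 genes at or near 0, and with 2 libraries the spread between animals cannot be estimated.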

Other observations

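Genes that share the S100 or EF-hand fold were looked at beside the members. The S100-fused genes of the epidermal differentiation complex, giant skin proteins whose genes flank the S100 cluster, had 0 counts in both libraries in 6 of 7 cases, and Tchh, trichohyalin, had 0 and 4 counts. Of 12 other EF-hand genes, 9 were tested, of which 3 were higher in library 2, 4 were lower and 2 did not pass, with a median log2 ratio of -0.03 beside 0.005 over all genes tested. Aif1, a macrophage calcium-binding protein, was higher at 7.08 and 8.21 TPM (log2 ratio 0.56), as were Sri, sorcin (0.28), and Lcp1, the leukocyte actin bundler plastin (0.26). Calb1, calbindin, had 0 counts in both libraries.

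Markers of other cell types differed between the libraries. All 6 red pulp macrophage genes and all 5 erythroid genes were higher in library 2, with median log2 ratios of 0.84 and 0.90. Smooth muscle genes were lower in 3 of 4 cases (median -0.19), and endothelial genes were higher in 3 and lower in 1 (0.16). T cell genes were higher in 4 of 4 cases (0.28), NK cell genes in 2 of 3 (0.30) and B cell genes in 2 of 3 with 1 lower (0.08). Pancreatic acinar genes were higher in 7 of 8 cases by counts (0.24). The lower one, Ctrb1, was the most abundant of them, at 36979 and 21059 TPM (log2 ratio -0.67). The summed TPM of the list was lower in library 2.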
